A study of Mus musculus with 16 samples.

Results

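Stat2, Irf1, Irf7, Irf9, Isg15, Ifit1, Ifit3, Bst2 and Rsad2, 9 genes of interferon signaling and antiviral defense, were followed in mouse gastrocnemius muscle. They were taken by their symbols from the 35415 genes in the count and FPKM tables, and all 9 had enough counts to be tested among 14749 genes. Polyadenylated RNA from wild type male BALB/c mice, 8 weeks old at purchase, was sequenced from 4 mice per group. The C group was free of tumors and untrained, and was placed on a treadmill that did not move. The E group was free of tumors and trained on the treadmill for 4 weeks, with 6 sessions a week of 60 min each and a speed of 14 m/min. The T group carried tumors of CT26 cells, a line of colon carcinoma of the same mouse strain, and was handled like the C group. The TE group had both the CT26 tumors and the training of the E group. CT26 cells were injected under the skin of 1 hind limb, and mice of the C and E groups received saline at that site under the same anesthesia. Whether the sequenced muscle came from the injected limb, and whether each sequenced TE mouse bore a tumor, is not given in the sources used here.

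Type I interferons bind the receptor IFNAR1 and IFNAR2, whose kinases JAK1 and TYK2 phosphorylate STAT2. STAT2 and IRF9 are parts of the factor ISGF3, which binds interferon-stimulated response elements (ISRE) in the promoters of antiviral genes. Interferon gamma signals through IFNGR1 and IFNGR2 to gamma-activated sites (GAS) in promoters, and Irf1 is a well-known early target of it. In skeletal muscle, raised levels of genes such as Isg15, Ifit1 and Rsad2 are best known from the inflammatory muscle disease dermatomyositis.

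The promoters of these genes are shown because factors of the pathway are known to bind sites with the ISRE and GAS letters. They were read from GRCm39 on the strand of the gene, and capitals mark the ISRE letters (GAAANNGAAA or its reverse complement TTTCNNTTTC), or for Irf1 the GAS letters (TTCNNNGAA, which is its own reverse complement).
Stat2, chr10:128106120-128106179, plus strand: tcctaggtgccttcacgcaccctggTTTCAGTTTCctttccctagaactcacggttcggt
Irf1, chr11:53660726-53660784, plus strand: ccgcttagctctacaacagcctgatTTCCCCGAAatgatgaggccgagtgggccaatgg
Isg15, chr4:156285307-156285378, minus strand: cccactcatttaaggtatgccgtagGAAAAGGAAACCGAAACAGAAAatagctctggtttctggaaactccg
Ifit1, chr19:34618160-34618238, plus strand: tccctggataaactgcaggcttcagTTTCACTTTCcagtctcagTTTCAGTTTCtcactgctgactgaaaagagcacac
Ifit3, chr19:34560748-34560841, plus strand: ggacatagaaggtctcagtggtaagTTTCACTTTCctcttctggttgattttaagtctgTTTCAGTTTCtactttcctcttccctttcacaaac
Bst2, chr8:71990206-71990271, minus strand: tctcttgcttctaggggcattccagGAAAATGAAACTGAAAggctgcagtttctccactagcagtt
Rsad2, chr12:26506537-26506596, minus strand: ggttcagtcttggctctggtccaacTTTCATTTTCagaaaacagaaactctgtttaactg

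In the 250 bases before the start of the canonical transcript, 6 of the 9 genes (66.7%) held the ISRE letters on either strand, against 723 of 21770 protein-coding genes (3.32%). Isg15 held 3 matches that overlap each other, Ifit1 and Ifit3 held 2 separate matches each, Bst2 held 2 overlapping matches, and Stat2 and Rsad2 held 1 each. The GAS letters were found before Irf1 and Bst2, in 22.2% of the 9 genes against 7.7% of all protein-coding genes, and in Bst2 they overlap an ISRE match. Irf7 and Irf9 held neither set of letters in this window. For Irf9 the window (chr14, 55841192 to 55841441) lies inside the annotated gene, which starts at 55841028. The bases before that gene start were therefore not read. For comparison, 30% of 20 GTPase genes induced by interferon gamma held the ISRE letters and 40% held the GAS letters, and of 55 other antiviral genes 34.5% and 3.64% did. These are matches of letters, and binding was not measured.

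**Figure D1:**
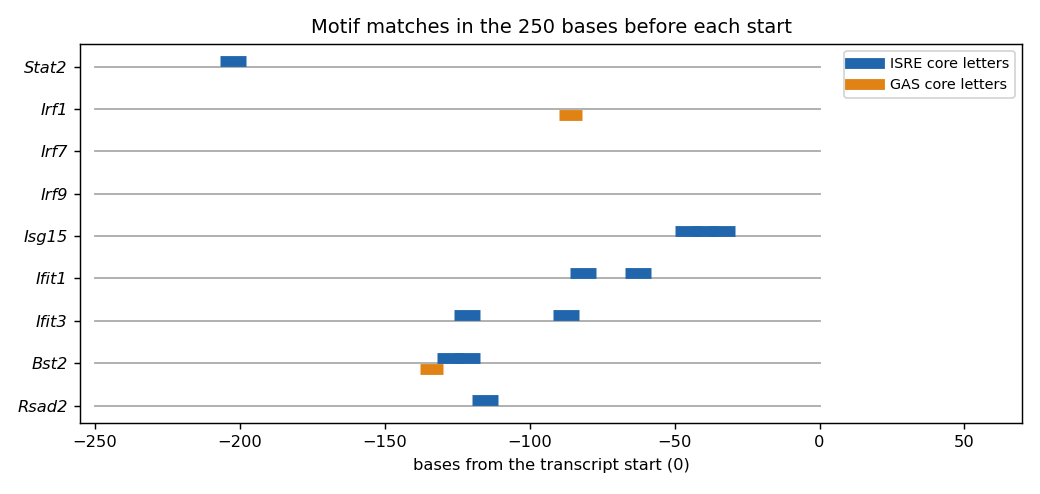
Matches of the ISRE letters (blue) and of the GAS letters (orange) in the 250 bases before the transcript start of each of the 9 genes; the horizontal axis is the distance from the start in bases and each row is a gene. In Isg15 the matches lie closest to the start, from -50 to -29, and in Stat2 farthest from it, from -207 to -198.

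None of the 9 genes passed an adjusted p-value of 0.05 in any comparison (edgeR quasi-likelihood test, Benjamini-Hochberg adjustment over all tested genes), and DESeq2 and limma-voom also called 0 of them. The same test called 100 genes in T compared with C (0.678% of those tested), 34 in TE compared with E (0.231%), 13 in E compared with C (0.0881%) and 0 in TE compared with T (0%). It called 201 genes for the tumor across trained and untrained mice (1.36%), 1 gene for training across tumor-free and tumor-bearing mice (0.00678%) and 0 for the interaction of tumor and training (0%). The smallest adjusted p-value among the 9 genes was 0.252, for Bst2 in T compared with C. Before adjustment, 13 of the 63 gene and comparison pairs had a p-value under 0.05. These were 3 genes in T compared with C, against 14.2% of all tested genes, and 3 in TE compared with T, against 5.88%. They were also Irf1 for the tumor, against 14.2%, and Stat2 and Rsad2 for training, against 10.8%. The other 4 pairs, 2 in TE compared with E, 1 in E compared with C and 1 for the interaction, are given with those comparisons.

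Libraries held 35628211 to 37635741 counts, and the lowest count of any of the 9 genes in a library was 42, for Isg15. A summed level of 12 muscle genes lay between 118873 and 137510 CPM (counts scaled to library size) in all libraries, and each of them was detected in every library. Markers of B and T lymphocytes, summed over the 11 genes analysed, were 70.8 CPM in the library TE4, 26.5 in C3 and 17.7 in E1, and 9.71 or less in the other 13 libraries. Each comparison was therefore also fitted without these 3 libraries, a choice made after their values were seen. Neutrophil markers summed to 1.27 to 4.64 CPM in the tumor-free libraries and to 8.81 to 46.9 CPM in the tumor-bearing ones, and macrophage markers to 70.5 to 119.9 CPM and 84.7 to 198.7 CPM in the same order. In bulk tissue, fewer cells of a type and less RNA per cell cannot be told apart, and the labels give a single batch for all libraries.

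The ligands of the pathway were near the limit of detection. Of 21 interferon genes, 19 had 0 counts in all 16 libraries, and Ifna2 and Ifng had 1 count each, both in the TE group. A count of 0 allows up to 3 counts, or at most 0.0842 CPM in a library, so levels below this were not detectable at this depth.

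The receptors and kinases were measured well. Ifngr2 and Jak1 had the highest levels, with 35.5 ± 1.43 and 33.3 ± 1.72 FPKM in the C group (SD, n = 4), whereas Ifnar1 and Ifnar2 had 3.16 ± 0.291 and 1.84 ± 0.254 FPKM. FPKM is the count divided by gene length in kilobases and by library size, so these levels can be compared between genes. Ifnlr1, the receptor for interferon lambda, had 0 to 8 counts per library and was too low to test. None of the 12 tested genes for receptors, kinases and other interferon regulatory factors passed the adjusted test in any comparison by edgeR, and 2 had an unadjusted p-value under 0.05 in T compared with C. Ifnar1 had a log2 fold change of -0.13 ± 0.08 (SE) in T compared with C and Ifnar2 of -0.07 ± 0.11. Jak1 had -0.09 ± 0.06, Jak2 -0.19 ± 0.12, Tyk2 0.11 ± 0.10, Ifngr1 0.23 ± 0.10 and Ifngr2 -0.06 ± 0.09 in the same comparison. The other genes of this list, Il10rb, Irf2, Irf3, Irf5 and Irf8, lay between -0.36 and 0.11.

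Stat2, which carries the transactivating part of ISGF3, had levels of 2.01, 2.31, 1.84 and 1.99 FPKM in C and of 2.53, 1.95, 2.38 and 2.20 FPKM in E. In the tumor-bearing mice its levels were 1.52, 1.76, 2.70 and 2.16 FPKM in T and 2.72, 2.70, 2.28 and 3.24 FPKM in TE. The TE mean was the highest of the 4 groups, and the third T library lay inside the TE range. Compared with T, the log2 fold change in TE was 0.42 (95% interval 0.12 to 0.71), with a p-value of 0.0090 by edgeR that became 0.724 on adjustment. It was 0.32 (0.02 to 0.62) in TE compared with E, while in T compared with C it was 0.02 (-0.28 to 0.32). Without TE4, which has the most lymphocyte marker counts and the highest Stat2 level, the value in TE compared with T was 0.35.

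Irf9, the DNA-binding part of ISGF3, was the steadiest of the 9 genes, with a mean coefficient of variation within groups of 10.5%. Its levels were 3.20, 3.15, 3.02 and 3.10 FPKM in C and 3.49, 3.28, 3.56 and 2.52 FPKM in E. In T they were 2.97, 2.85, 2.27 and 3.15 FPKM, and in TE 4.25, 3.50, 3.29 and 3.61 FPKM. All 4 TE libraries lay above all 4 T libraries, a separation in this direction that 1.49% of tested genes had. The log2 fold change in TE compared with T was 0.36 (95% interval 0.10 to 0.63), with an unadjusted p-value of 0.0096 and an adjusted p of 0.736 by edgeR. Without TE4 it was 0.39. In T compared with C it was -0.12 (-0.38 to 0.14), and -0.02 without T3. Irf9 overlaps Rnf31 on the same strand, so reads in the shared stretch could belong to either gene.

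Irf1, a regulator that interferon gamma induces through GAS sites, had levels of 4.36, 6.30, 5.08 and 5.34 FPKM in C and of 4.58, 5.86, 5.26 and 6.54 FPKM in E. In T they were 6.40, 5.45, 5.40 and 6.05 FPKM, and in TE 5.63, 7.64, 5.22 and 9.34 FPKM. The 2 highest levels were in the TE group, and the other 2 TE libraries lay within the ranges of C and E. For the tumor across both training states, the log2 fold change was 0.27 (95% interval 0.03 to 0.51) and the adjusted p by edgeR was 0.278. This value was 0.19 without TE4 and 0.13 without TE4, C3 and E1. The unadjusted p-value of Irf1 for the tumor was not under 0.05 by edgeR without C1, E1, E3, T1, TE2 or TE4. In TE compared with E the log2 fold change was 0.37 (0.03 to 0.70), and it was 0.22 without TE4 and 0.12 without TE4, C3 and E1. The highest Irf1 level was thus in the library with the most lymphocyte markers; their part in it was not tested. Noncoding genes overlap Irf1 on the opposite strand, and the strand setting of the counting is not given in the sources used here.

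Irf7, which amplifies type I interferon production and is abundant in plasmacytoid dendritic cells, had levels of 5.67, 3.57, 3.73 and 3.16 FPKM in C and of 6.86, 2.43, 3.50 and 2.81 FPKM in E. In T they were 3.42, 3.36, 3.17 and 3.26 FPKM, and in TE 3.93, 3.33, 3.93 and 3.68 FPKM. A single library in C and a single library in E lay far above the rest, while the 8 tumor-bearing libraries stayed within a narrow range. The coefficient of variation was 51.8% in E and 27.7% in C, against 3.35% in T and 7.62% in TE. For Irf7 the log2 fold change was -0.27 (95% interval -0.80 to 0.27) in T compared with C and 0.15 (-0.38 to 0.69) in TE compared with T. Without C1 it was -0.03 in T compared with C. Irf7 overlaps Phrf1 on the opposite strand.

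Bst2, which encodes tetherin, a membrane protein that holds budding viruses at the cell surface, had the highest level of the 9 genes. Its levels were 15.87, 15.34, 12.97 and 14.23 FPKM in C and 14.40, 11.09, 11.44 and 11.02 FPKM in E. In T they were 12.88, 11.44, 12.19 and 8.22 FPKM, and in TE 14.02, 14.70, 11.18 and 15.85 FPKM. All 4 T libraries lay below all 4 C libraries, with the nearest values 12.88 and 12.97 FPKM, and 4.21% of tested genes were separated in this direction. The groups overlapped in the other pairs, and E lay low except for its first library.

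For Bst2 the log2 fold change was -0.36 (95% interval -0.66 to -0.06) in T compared with C, with an adjusted p of 0.252 by edgeR, and -0.24 without T4. It was -0.32 (-0.62 to -0.03) in E compared with C and 0.30 (0.00 to 0.60) in TE compared with T. The interaction of tumor and training, which compares the training difference in tumor-bearing mice with that in tumor-free mice, was 0.62 (0.20 to 1.04) on the log2 scale. It had the smallest unadjusted p-value among the 63 pairs, 0.0061, and an adjusted p of 0.438 by edgeR. Without TE4 the interaction was 0.58, and without TE4, C3 and E1 it was 0.73. Siglech, a defining marker of plasmacytoid dendritic cells, which also carry BST2, was looked up after the Bst2 values were seen and had 0.992 to 1.90 CPM in C, 1.17 to 2.52 in E, 0.519 to 0.799 in T and 0.457 to 1.39 in TE. All 4 Siglech levels in T lay below all 4 in C and all 4 in E, and those of C and E overlapped. A separation of T below C was found for 4.21% of tested genes, and such a share was not computed for T and E. Of the other 6 markers of these cells on the list, Tcf4, Cox6a2, Pacsin1 and Lair1 overlapped between all groups, and Ccr9 and Klk1 had 7 counts or fewer in every library. Cox6a2 and Tcf4 had 21743 to 27176 and 2068 to 3592 counts per library, against 17 to 95 for Siglech. In bulk muscle, their reads from muscle fibers or other cells cannot be told apart from those of dendritic cells. In T compared with C the log2 fold changes were -1.06 for Siglech, -0.56 for Pacsin1, -0.08 for Tcf4, 0.05 for Cox6a2 and 0.24 for Lair1, and none of these markers passed the adjusted test by edgeR. The part of these markers in the Bst2 values was not tested.

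Isg15, a ubiquitin-like protein that is attached to other proteins during antiviral responses, had levels of 4.86, 3.92, 3.31 and 1.75 FPKM in C and of 3.65, 2.23, 2.11 and 1.95 FPKM in E. In T they were 2.53, 2.77, 2.64 and 1.51 FPKM, and in TE 3.72, 3.16, 1.85 and 4.04 FPKM. The order of the means followed that of Bst2, with C highest, then TE, E and T, and all 4 groups overlapped. For Isg15 the log2 fold change was -0.53 (95% interval -1.20 to 0.14) in T compared with C and -0.52 (-1.19 to 0.15) in E compared with C. It was 0.41 (-0.26 to 1.08) in TE compared with T, and the interaction was 0.93 (-0.01 to 1.88). Without C1 the values in T and in E compared with C were -0.29 and -0.29, and without T4 the value in TE compared with T was 0.25. With 42 to 131 counts per library, Isg15 was among those of the 9 genes with the fewest counts. A predicted gene, Gm46878, overlaps it on the opposite strand.

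Ifit1, whose protein binds viral RNA that lacks the host cap methylation, had levels of 1.28, 1.53, 1.34 and 1.01 FPKM in C and of 1.46, 0.734, 0.917 and 0.559 FPKM in E. In T they were 0.445, 0.794, 1.10 and 0.722 FPKM, and in TE 0.642, 0.742, 0.693 and 1.53 FPKM. Only the third T library reached the range of the C group, and in TE only the fourth library did. Its log2 fold change was -0.73 (95% interval -1.41 to -0.06) in T compared with C, with an adjusted p of 0.301 by edgeR. For TE compared with T it was 0.22 (-0.46 to 0.90) with all libraries and -0.13 without TE4. Ifit1bl2 overlaps Ifit1 on the opposite strand.

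Ifit3, a partner of the Ifit1 protein, had levels of 2.08, 1.78, 1.06 and 1.16 FPKM in C and of 1.70, 0.992, 1.26 and 0.928 FPKM in E. In T they were 0.673, 1.43, 0.716 and 0.935 FPKM, and in TE 0.867, 0.771, 1.13 and 1.496 FPKM. The C group had the highest mean and T the lowest, and the groups overlapped. For Ifit3 the log2 fold change was -0.67 (95% interval -1.29 to -0.06) in T compared with C, with an adjusted p of 0.300 by edgeR. For TE compared with T it was 0.17 (-0.45 to 0.79), and without TE4 it was -0.02. Ifit3 has a near-identical neighbor, Ifit3b, so the split of reads between them is uncertain.

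Rsad2, which encodes viperin, an enzyme that makes a chain-terminating nucleotide, had levels of 0.853, 0.848, 0.698 and 0.444 FPKM in C and of 0.744, 1.06, 0.814 and 1.29 FPKM in E. In T they were 0.621, 0.963, 0.626 and 0.604 FPKM, and in TE 1.03, 1.01, 0.696 and 1.12 FPKM. Both trained groups had higher means than both untrained groups, with overlap between all of them. For training across tumor-free and tumor-bearing mice, the log2 fold change was 0.43 (95% interval 0.07 to 0.79), with an unadjusted p-value of 0.0222 and an adjusted p of 0.389 by edgeR. Without E4 the unadjusted p-value of Rsad2 for training was not under 0.05 by edgeR. The log2 fold change was 0.42 (-0.09 to 0.93) in E compared with C and 0.44 (-0.07 to 0.95) in TE compared with T, and the first of these was 0.25 without E4. In T compared with C it was 0.01 (-0.50 to 0.52).

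**Figure D2:**
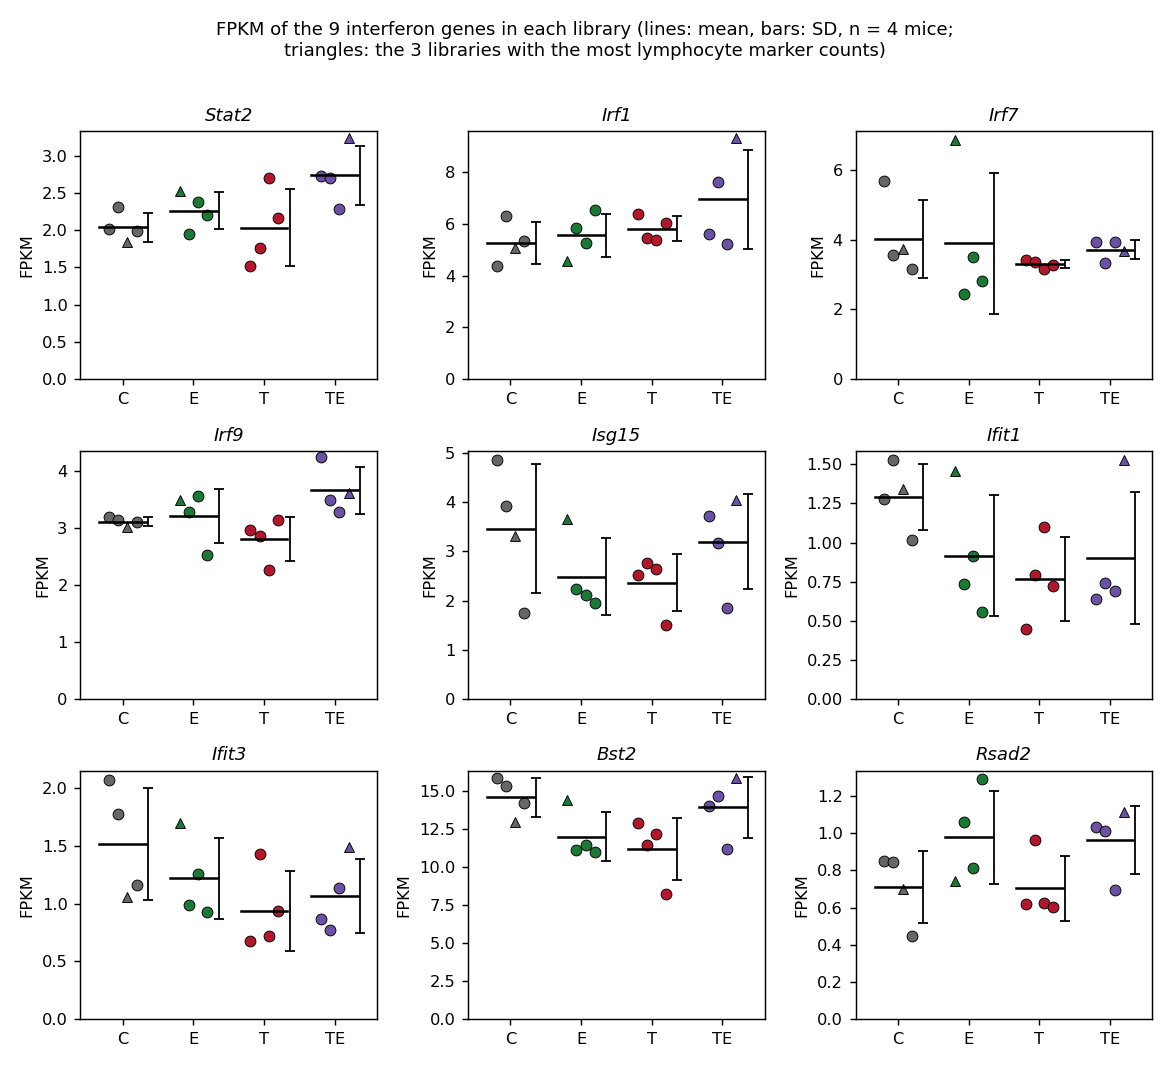
FPKM (vertical axes, linear from 0) of the 9 genes in the 16 libraries by group; points are libraries, horizontal lines are means, bars are SD with 4 mice per group, and triangles are TE4, C3 and E1, the 3 libraries with the most lymphocyte marker counts. The 4 TE libraries lie above the 4 T libraries for Irf9, and the 4 T libraries lie below the 4 C libraries for Bst2.

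Set side by side in T compared with C, the largest differences were those of Ifit1, Ifit3, Isg15 and Bst2, all with lower levels in T, while Stat2 and Rsad2 were near 0. The median log2 fold change of the 9 genes was -0.27, against 0.00 over all tested genes, and 6 of 9 were below 0, against 50.3% of tested genes. With single libraries left out the median ran from -0.37 without C4 to -0.09 without C1, and the 3 unadjusted p-values under 0.05 became 0 without C1 or T4 and 1 without C2 or T1. Whether the effectors differed from the ISGF3 genes was not tested. The summed lymphocyte markers were 0.546 to 1.57 CPM in T, the group with the lowest median, against 0.702 to 26.5 in C, 1.45 to 17.7 in E and 0.699 to 70.8 in TE. All 11 of these markers had a log2 fold change below 0 in T compared with C, 6 of them at an unadjusted p-value under 0.05 by edgeR. In TE compared with T all 11 were above 0, 10 of them at such a p-value. Of all tested genes, 14.2% had such a p-value in the first comparison and 5.88% in the second. The high value in TE was that of TE4, while TE1, TE2 and TE3 had 1.01, 0.734 and 0.699 CPM, inside the range of T. The part of these markers in the values of the 9 genes was not tested.

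In TE compared with T, all 9 genes had a log2 fold change above 0, against 50.5% of tested genes, with a median of 0.30 and a range of 0.15 to 0.44. Without TE4 the median was 0.25 and 7 of 9 were above 0, the exceptions being Ifit1 and Ifit3. The genes with an unadjusted p-value under 0.05 were Stat2, Irf9 and Bst2 with all libraries, and Stat2 and Irf9 without TE4. Bst2 also had no such p-value without C2, C4, E4, T2, T4, TE1 or TE2, with limma-voom or with only the 2 groups fitted, and without T4 its log2 fold change was 0.18. T is a group of both comparisons, so low values in its libraries enter T compared with C and TE compared with T together.

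In TE compared with E, 7 of 9 genes were above 0, against 50.8% of tested genes, with a median of 0.24. Irf1 and Stat2 had an unadjusted p-value under 0.05, as did 9.23% of tested genes, and without TE4 or without TE2 neither did. In E compared with C, 4 of 9 were above 0, against 50.6%, with a median of -0.09, and Bst2 had an unadjusted p-value under 0.05, as did 14.2% of tested genes. With single libraries left out the median in E compared with C ran from -0.42 without E1 to -0.01 without E2. Bst2 lost its unadjusted p-value under 0.05 without C1, C2, E2, E3 or E4, which left 0 of the 9 genes. Without E1, Bst2, Ifit1, Irf7 and Isg15 had an unadjusted p-value under 0.05, as did 14.4% of tested genes in that fit. Leaving out C3, E1 and TE4 gave a median of -0.48. Bst2, Ifit1, Ifit3, Irf7 and Isg15 then had lower levels in E at an unadjusted p-value under 0.05, as did 15.7% of tested genes in either direction, and 0 of the 9 genes passed the adjusted test.

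The interaction was above 0 for all 9 genes, against 49.8% of tested genes, with a median of 0.36. Without TE4 it was above 0 for 8 of 9, with Rsad2 at -0.04, and without TE4, C3 and E1 for 7 of 9, with Rsad2 at -0.14 and Irf1 at -0.02. Bst2 had an unadjusted p-value under 0.05, as did 9.21% of tested genes. The intervals of the other 8 genes included 0. Without E1 the median was 0.67, and Bst2, Ifit1, Irf7, Irf9 and Isg15 had an unadjusted p-value under 0.05, as did 9.91% of tested genes in that fit. Without TE4, C3 and E1 the median was 0.69, and Bst2, Irf7 and Isg15 had such a p-value, as did 9.22% of tested genes.

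**Figure D3:**
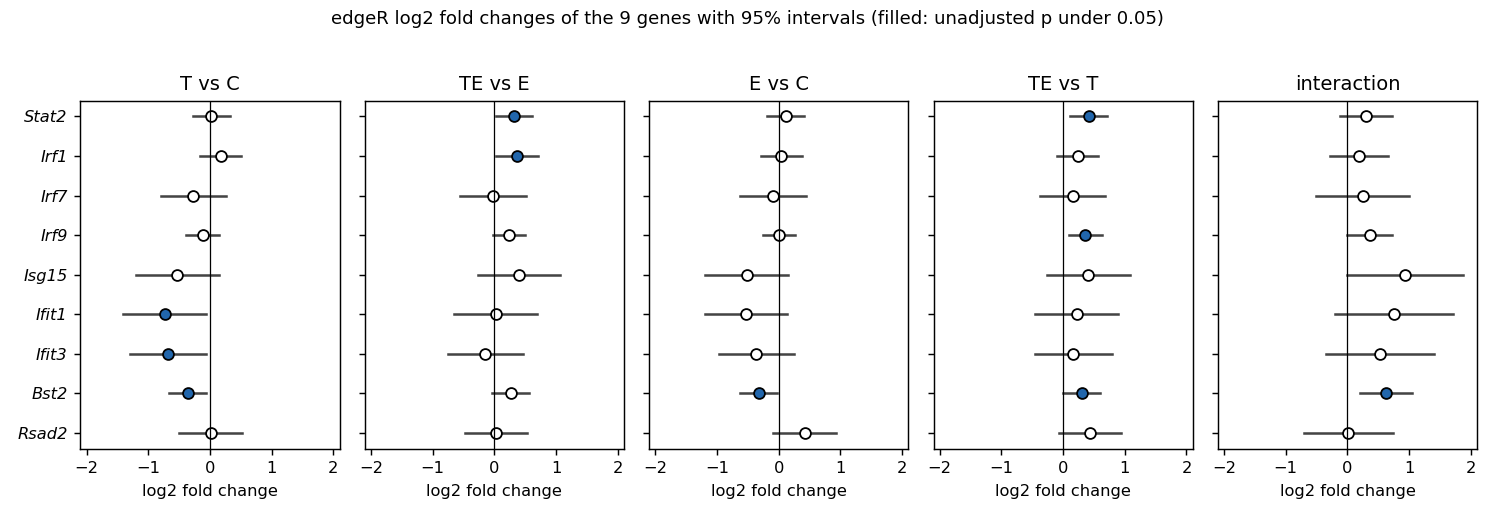
Log2 fold changes (horizontal axes) of the 9 genes in 4 comparisons of 2 groups and in the interaction of tumor and training; points are edgeR estimates, lines are 95% intervals, and filled points have an unadjusted p-value under 0.05. In TE compared with T all 9 points lie between 0.15 and 0.44, and in T compared with C the lowest is Ifit1 at -0.73.

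The highest and lowest libraries differed between the 9 genes, here on the scale of log2 CPM. TE4 had the highest level of Stat2 and Irf1 and was among the 3 highest libraries for 7 of the 9 genes. C1 had the highest level of Isg15, Ifit3 and Bst2, and its summed lymphocyte markers were 0.702 CPM, with 5 of the 11 genes at 0. E1 had the highest level of Irf7, C2 of Ifit1, E4 of Rsad2 and TE1 of Irf9. In the T group, T1 had the lowest level of Stat2 and Ifit1, T3 of Irf9 and Ifit3, and T4 of Isg15 and Bst2. Averaged over the 9 genes, the standardized log2 CPM ran from -0.69 in T4 to 1.18 in TE4, and all 4 T libraries were below 0.

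**Figure D4:**
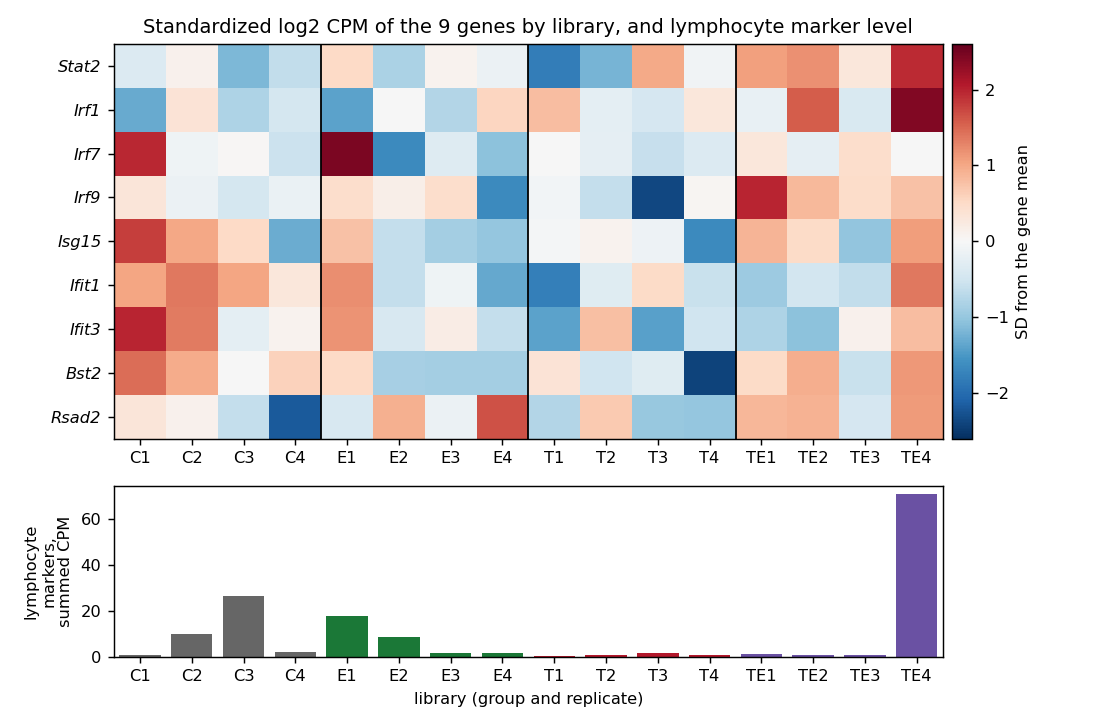
Upper part, log2 CPM of the 9 genes (rows) in the 16 libraries (columns), as SDs from the mean of each gene; lower part, summed CPM of 11 lymphocyte markers in the same libraries. TE4 has the most lymphocyte marker counts, 70.8 CPM, and high values for 8 of the 9 genes, and C1 has high values for Isg15, Ifit3 and Bst2 with 0.702 CPM of these markers.

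Over the 16 libraries, the log2 CPM of 30 of the 36 pairs of genes had a Pearson r above 0, which is a description over libraries that share groups. The highest values were 0.81 for Isg15 and Bst2 (Spearman's rho 0.77), 0.69 for Ifit1 and Ifit3 (0.68) and 0.58 for Irf7 with Isg15 and with Ifit3. After the group means were removed, r was 0.76 for Isg15 and Bst2 and 0.57 for Ifit1 and Ifit3. Irf1 and Irf7 had the lowest r, -0.44, with Irf1 lowest in E1 and next lowest in C1, the libraries where Irf7 was highest. Variation within groups was least for Irf9 (10.5%) and Bst2 (13.8%) and most for Ifit1 (35.2%), Ifit3 (32.1%) and Isg15 (31.0%).

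Of all tested genes, Phf6 and Xaf1 had the pattern most like the mean of the 9 genes over the 16 libraries, with Pearson r of 0.86 and 0.85. Xaf1, a proapoptotic gene that interferons induce, was the only one of the 10 most alike that is on the list of other antiviral genes. The others were Calml4 (0.83), Commd7 (0.81), Zdhhc12 (0.80), Pole4 (0.78), Blvrb (0.78) and 3 genes without an established name, with r from 0.74 to 0.77.

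Other genes of the pathway were read from lists. Of 46 other antiviral genes tested by edgeR, 1 passed the adjusted test in T compared with C, 2 in TE compared with E, 0 in E compared with C and 0 in TE compared with T. Of the same 46, the tumor across both training states gave 3, all higher. DESeq2, which tested 53 genes of the list, called 3, 3, 1 and 0 in these comparisons and 6 for the tumor. The medians of the list were -0.11 in T compared with C and 0.18 in TE compared with E.

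Ifitm3, which blocks the entry of viruses by fusion, rose with the tumor in both training states. Its levels were 110, 125, 91.5 and 106 FPKM in C, and 143, 150, 171 and 137 FPKM in T. In E they were 116, 93.7, 99.5 and 92.2 FPKM, and in TE 133, 137, 148 and 169 FPKM. All 8 tumor-bearing libraries lay above all 8 tumor-free ones. The log2 fold change for the tumor was 0.55 ± 0.07 (SE), higher in 8 of 8 libraries (edgeR, adjusted p = 0.000775). It was 0.49 in T compared with C (adjusted p = 0.0335 by edgeR) and 0.60 in TE compared with E (adjusted p = 0.0124 by edgeR). The adjusted p-value for T compared with C was 0.0893 without C3, 0.124 without C4, 0.0594 without T1 and 0.112 without T3, with log2 fold changes of 0.41, 0.48, 0.50 and 0.44, and it was 0.0565 with the replicate number as a block. Adjusted p-values in TE compared with E were 0.0532 without E2, 0.0584 without E3 and 0.0506 without E4.

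Ube2l6, the enzyme that conjugates Isg15 to its targets, rose for the tumor across both training states. Its levels were 5.53 to 7.17 FPKM in the 8 tumor-free libraries and 8.06 to 11.6 FPKM in the 8 tumor-bearing ones, so that these did not overlap. The log2 fold change for the tumor was 0.56 ± 0.08 (SE, edgeR, adjusted p = 0.00135). It was 0.64 in TE compared with E (edgeR, adjusted p = 0.0149), with adjusted p-values of 0.0532 without E2, 0.0821 without E3 and 0.0573 without TE4, C3 and E1. It was 0.47 in T compared with C and did not pass the adjusted test (edgeR, adjusted p = 0.0604). Isg15 itself had a log2 fold change of -0.06 for the tumor (95% interval -0.53 to 0.41).

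Ifitm1, a relative of Ifitm3, had 1.04 to 2.42 FPKM in the tumor-free libraries and 1.86 to 5.71 FPKM in the tumor-bearing ones, with 7 of 8 tumor-bearing libraries above the tumor-free range. Its log2 fold change for the tumor was 1.17 ± 0.21 (SE, edgeR, adjusted p = 0.00746), and the adjusted p without TE4, C3 and E1 was 0.0537. Neutrophil marker levels, given above, were also higher in all tumor-bearing than in all tumor-free libraries; their part in the Ifitm1, Ifitm3 and Ube2l6 levels was not tested. The 2 other antiviral genes with the smallest p-values of their list in TE compared with T, Parp14 and Gm4951, had log2 fold changes of 0.30 and 1.03 and did not pass the adjusted test, and that of Gm4951 was 0.62 without TE1.

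Among 20 tested sensors of nucleic acids and their adaptors, Ifi203, a member of the interferon-inducible p200 family, fell in T compared with C. Its levels were 4.62, 6.11, 5.62 and 5.47 FPKM in C and 3.08, 4.11, 2.84 and 4.26 FPKM in T, and these did not overlap. The log2 fold change was -0.58 ± 0.12 (SE, edgeR, adjusted p = 0.0349), and it lost the call without C2, C3, C4, T1, T3 or E4, with adjusted p-values from 0.0542 to 0.117, without TE4, C3 and E1 (0.0943) and with the replicate number as a block (0.0534). For the tumor across both training states it was -0.42 (edgeR, adjusted p = 0.0179), with an adjusted p of 0.0831 without TE4, C3 and E1. Its family has close paralogs, so its counts are uncertain. Ifi205 of the same family had 0.93, Tlr7, a sensor of single-stranded RNA, had 1.32 and Mavs, the adaptor of the RNA helicase sensors, had 0.10 in T compared with C, and none of them passed the adjusted test by edgeR. DESeq2 called 2 sensors in T compared with C, 1 in E compared with C and 3 for the tumor.

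None of the 12 tested brakes of the pathway passed the adjusted test by edgeR, whereas DESeq2 called 1 in T compared with C, 1 in E compared with C and 1 for the tumor. In T compared with C, 2 had an unadjusted p-value under 0.05 by edgeR. Ptpn11, a phosphatase, had a log2 fold change of 0.26 ± 0.06 (SE, edgeR, adjusted p = 0.057) in T compared with C. The suppressors Socs1 and Socs3 had 0.54 and 1.07 in T compared with C, and 1.41 and -0.51 in TE compared with T. Socs1 in TE ranged from 0.41 to 3.85 FPKM, with the highest value in TE2. Without TE2 the value of Socs1 in TE compared with T was 0.25, and without T1 that in T compared with C was 0.11. For Socs3 the value in TE compared with T was -0.92 without TE2 and -0.32 without TE1. Ptpn6, a phosphatase of blood cells, had 1.10 in TE compared with T and -0.37 without TE4, the library with the most lymphocyte markers, where it had 5.31 FPKM against 0.604 to 0.674 FPKM in the other 3 TE libraries.

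Genes that answer mainly to interferon gamma were read in the same way. Of 19 tested GTPases induced by interferon gamma, 6 rose in TE compared with E, and 18 of 19 were above 0, with a median log2 fold change of 0.59. The count was 3 with the replicate number as a block and 3 without E2, E3, E4, TE1 or TE2, each left out alone. It was 5 without TE4, C3 and E1. In T compared with C, 0 of the 19 passed the adjusted test by edgeR, 4 had an unadjusted p-value under 0.05, 10 were above 0 and the median was 0.05. All 8 tested neutrophil markers were above 0 in TE compared with E (median 2.35) and in T compared with C (3.54). All 11 lymphocyte markers were above 0 in TE compared with E (median 1.26) and below 0 in T compared with C (-4.18). The part of these markers in the GTPase values was not tested. Gbp4 had 4.82 to 7.45 FPKM in E and 10.6 to 13.4 FPKM in TE, Igtp 4.05 to 5.42 and 6.71 to 8.61, and Tgtp1 0.93 to 1.36 and 1.80 to 3.57. The log2 fold changes of these 3 genes, which encode guanylate-binding and immunity-related GTPases, were 1.05, 0.75 and 1.47 (edgeR, adjusted p = 0.00698, 0.00698 and 0.00799), and all 4 TE libraries lay above all 4 E libraries for each. Tgtp1 has a near-identical copy, Tgtp2, so its counts are uncertain. Over the same list in TE compared with T the median was 0.55 and 0 of 19 passed the adjusted test, with 14 at an unadjusted p-value under 0.05 by edgeR (5.88% of tested genes) and 4 of 20 called by DESeq2. Of 19 tested genes of MHC class I presentation, 0 passed in any comparison by edgeR, with a median of 0.34 and 15 of 19 at an unadjusted p-value under 0.05 (9.23% of tested genes) in TE compared with E, where DESeq2 called 4 and limma-voom 1. Their median in T compared with C was 0.01, with 0 at an unadjusted p-value under 0.05. Whether these lists differed from the 9 genes was not tested.

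**Figure D5:**
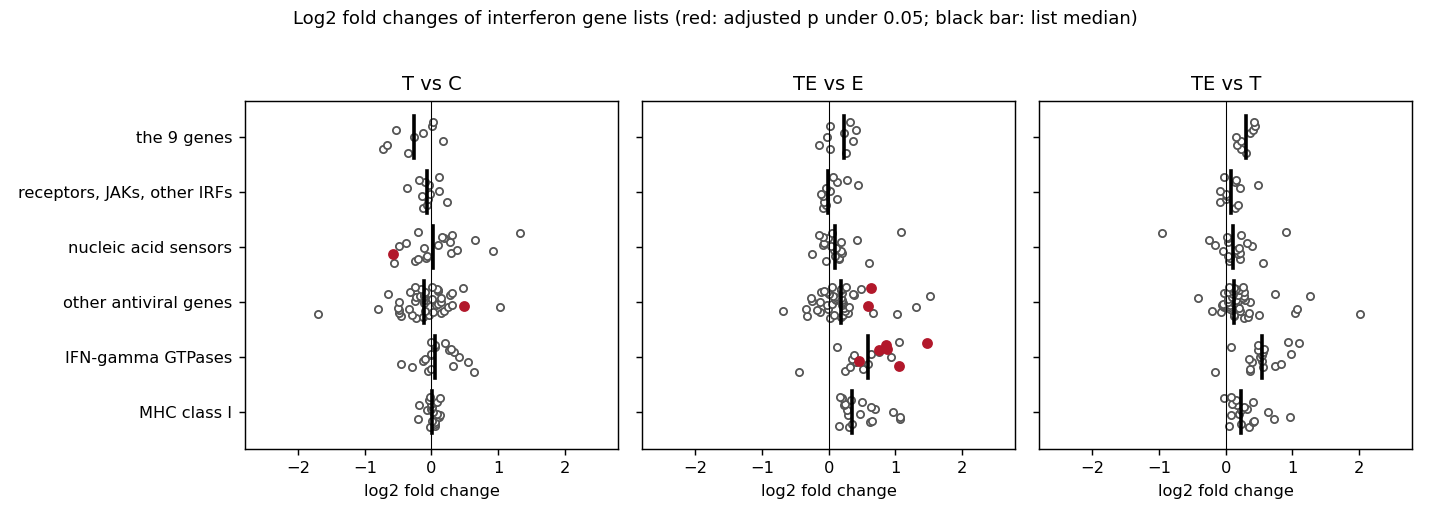
Log2 fold changes (horizontal axes) of the genes of 6 lists in T compared with C, TE compared with E and TE compared with T; each point is a tested gene, red points have an adjusted p-value under 0.05 and black bars are medians. In TE compared with E the GTPases have a median of 0.59 with 6 red points, and the 9 genes a median of 0.24 with 0 red points.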

How the data were processed

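RNA from gastrocnemius muscle of 16 mice in 4 groups (C, E, T and TE, 4 mice each, by the labels) was analysed. The authors trimmed reads (fastp 0.20.1), aligned them to GRCm39 (HISAT2 2.1.0) and deposited counts per gene (HTSeq 0.11.2, versions from the submitters' processing notes), and FPKM values that the authors calculated from these counts. Annotation release and strand setting are not given in the sources used here. The tables held 0 columns of other samples.

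Counts were tested with edgeR 4.0.16 in R 4.3.3 (filterByExpr, TMM factors, quasi-likelihood test, 1 coefficient per group over all 16 libraries), two-sided, with Benjamini-Hochberg adjustment over 14749 genes in each comparison. A gene was called at an adjusted p-value under 0.05. Main effects averaged the 2 differences. Intervals are 95%. The limit for 0 counts covers counting error only. Libraries with the same replicate number are different mice: of 24 such pairs, 5 had a correlation of residuals over 0.1 (-0.241 to 0.214), so they were not paired. The edgeR step was tested on simulated data.

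The 9 genes and all gene lists were chosen with earlier results of these data known. Named genes were the 9 genes, each ligand with a count, each receptor, kinase and regulator, called genes of the other lists with the 2 smallest p-values in T compared with C and in TE compared with T, at most 3 called GTPase and MHC class I genes, and the 10 genes most like the mean of the 9. A further gene of the pathway was taken off the lists and is not reported here, and Mx1, Mx2, Oas1b, Gbp11, H2-L and Trac were not analysed here. Promoters came from GRCm39 with GENCODE starts. Alternatives were DESeq2 1.42.0, limma-voom (limma 3.58.1) with sample weights, DESeq2 size factors, no filter, a fold change above 2 or below 0.5, the unadjusted p-value, a robust fit, a block for the replicate number, only the 2 groups compared, each library left out, and, added after the data were seen, C3, E1 and TE4 left out.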

Additional observations from a re-analysis of the deposited data

Results flagged for a closer look

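In 4 of 36 gene and group sets of 4 libraries, 1 library stood apart from the other 3 by Dixon's ratio of the gap to the range, which passed its 95% critical value. Chance gives about 1 in 20 such sets. Isg15 in E had a ratio of 0.835, with E1 at 3.65 FPKM and the other 3 at 1.95 to 2.23. Bst2 in E had a ratio of 0.875, again for E1, at 14.4 FPKM against 11.02 to 11.44. Ifit1 in TE had a ratio of 0.887, with TE4 at 1.53 FPKM against 0.642 to 0.742. Rsad2 in T had a ratio of 0.938, with T2 at 0.963 FPKM against 0.604 to 0.626. E1 and TE4 were among the 3 libraries with the most lymphocyte marker counts, and T2 had 0.653 CPM of these markers. The part of these markers was not tested.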

How the results depend on the processing

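No value of the 9 genes passed the adjusted test among 1485 values from 24 alternatives and the 7 comparisons; the smallest adjusted p was 0.0837, for Stat2 and training across both tumor states without T3 (edgeR). Without adjustment, 3 genes passed in T compared with C, 2 in TE compared with E, 1 in E compared with C, 3 in TE compared with T, 1 for the tumor, 2 for training and 1 for the interaction. Of 63 gene and comparison pairs, 42 kept their sign throughout, including all 13 with an unadjusted p-value under 0.05. The log2 fold change of Stat2 in T compared with C (0.02) became -0.053 with limma-voom, -0.042 without C3, E1 and TE4, and from -0.13 to 0.12 with single libraries left out. That of Rsad2 (0.01) became -0.0049 with the replicate number as a block, -0.015 without C3, E1 and TE4, and from -0.18 to 0.13 with single libraries left out. In TE compared with T, Ifit1 (0.22) became -0.13 and Ifit3 (0.17) became -0.018 without C3, E1 and TE4, and with single libraries left out they ranged from -0.13 to 0.43 and from -0.015 to 0.45, with TE4 as the library that turned both. The cause was not tested. Ratios of mean FPKM had the sign of the edgeR value in 32 of 36 pairs, the exceptions being Stat2 and Rsad2 in T compared with C and Ifit1 and Rsad2 in TE compared with E, all with log2 fold changes within 0.03 of 0. The replicate block changed no call among the 9 genes, but ended those of Ifitm3 (adjusted p = 0.0565) and Ifi203 (0.0534) in T compared with C (edgeR) and took the GTPases called in TE compared with E from 6 to 3. Among other list genes in T compared with C, Ifitm3 was called in 18 and Ifi203 in 15 of the 24 alternatives, with adjusted p-values of 0.0746 and 0.115 when only the 2 groups were fitted (edgeR). These 24 did not include the fold change limit or the unadjusted p-value. A fold change above 2 or below 0.5 ended these calls, with log2 fold changes of 0.49 and -0.58. It also ended those of Ube2l6, with 0.56 for the tumor and 0.64 in TE compared with E. The GTPases called in TE compared with E numbered 3 to 9 over the same 24 alternatives. They numbered 2 with a fold change above 2 or below 0.5, and 12 with the unadjusted p-value by edgeR. With 4 mice per group, the 95% intervals of Isg15, Ifit1, Ifit3, Irf7 and Rsad2 were over 1 log2 unit wide in each comparison of 2 groups, which limits the differences that could be detected.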
